A study of Mus musculus with 10 samples.

Results

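The carriers that move glucose, lactate and amino acids across the blood–brain barrier were examined in brain endothelial cells (BECs) of APP/PS1 and control mice. The 8 carriers Slc2a1, Slc16a1, Slc7a5, Slc3a2, Slc7a1, Slc38a5, Slc38a3 and Slc6a6 were given by name, with no value in the rule that lists them, although earlier results of these data were known when they were chosen. All 8 were among the 14106 genes of the deposited table. BECs had been isolated from cortex of female mice aged 1 year, and their RNA sequenced in bulk, in 5 control libraries (genotype WT) and 5 APP/PS1 libraries. APP/PS1 mice carry a chimeric mouse/human amyloid precursor protein transgene with the Swedish mutation and a second, human transgene, which act in the whole animal and not in endothelium alone. Controls were of the same age, sex and C3H/BL6 background. After cardiac perfusion and removal of myelin, cells were enriched with CD31 microbeads. The sources used here do not give the number of mice behind a library, so p values measure only the spread between libraries, which may in part be technical.

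The endothelium of the brain is sealed by tight junctions, so polar nutrients cross it on carrier proteins and not between cells. Slc2a1 encodes GLUT1, the glucose carrier of the barrier, and Slc16a1 encodes MCT1, which moves lactate and ketone bodies together with protons. Slc7a5 (LAT1) exchanges large neutral amino acids such as leucine and phenylalanine and is held in the membrane by Slc3a2 (4F2hc, CD98), its heavy chain. Slc7a1 (CAT1) carries cationic amino acids such as arginine, Slc38a3 (SNAT3) and Slc38a5 (SNAT5) carry glutamine and related amino acids with sodium, and Slc6a6 (TauT) carries taurine, an osmolyte.

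The 8 genes lie on 8 different chromosomes of GRCm38 (mm10), so none neighbours another. Slc2a1 lies at chr4:119108711-119137983, Slc16a1 at chr3:104638668-104658462, Slc6a6 at chr6:91684053-91759066 and Slc38a5 at chrX:8271133-8280179, all on the plus strand. Slc7a5 lies at chr8:121881150-121907694, Slc3a2 at chr19:8706882-8723369, Slc7a1 at chr5:148327410-148399904 and Slc38a3 at chr9:107650634-107669530, all on the minus strand. Other annotated genes overlap 4 of them: Slc2a1, Slc16a1, Slc7a5 and Slc6a6. On Slc2a1 the largest overlap is with the antisense gene Gm12868, over 4235 bases, at a mean level of 5.43 log2 CPM against 12.76 for Slc2a1. On Slc7a5 it is with Gm20388 on the other strand, over 26545 bases, a gene not in the deposited table. These overlaps are of whole gene spans, introns included, and whether exons are shared was not examined. Whether the counting used strand is not given in the sources used here, so reads of any shared exon cannot be assigned to 1 of the genes.

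Promoter sequence is shown for 3 carriers that the results turn on: Slc38a5, with the largest difference between groups, Slc16a1, the carrier with a difference of 1 sign in every pair as deposited, and Slc2a1, the most abundant. RefSeq (GRCm38.p6) gave a window from 250 bases before to 50 bases after the start for 5 of the 8 carriers, and Slc7a5, Slc38a3 and Slc6a6 were without an entry. Each line gives the part of the plus strand before the RefSeq start that is free of annotated exons, 5′ to 3′. Capitals mark matches, wholly inside the stretch and on either strand, to the E-box (CACGTG), the hypoxia response core (ACGTG or GCGTG) and the GC box (GGGCGG).
Slc38a5, chrX:8271261-8271380: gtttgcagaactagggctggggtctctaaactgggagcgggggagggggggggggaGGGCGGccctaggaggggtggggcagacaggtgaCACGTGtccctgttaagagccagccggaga
Slc16a1, chr3:104638414-104638663: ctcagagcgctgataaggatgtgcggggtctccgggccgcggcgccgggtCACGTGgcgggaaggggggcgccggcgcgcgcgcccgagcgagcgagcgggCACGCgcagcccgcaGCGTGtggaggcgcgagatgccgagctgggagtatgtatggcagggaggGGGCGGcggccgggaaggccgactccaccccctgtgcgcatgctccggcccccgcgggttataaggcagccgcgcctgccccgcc
Slc2a1, chr4:119108495-119108710: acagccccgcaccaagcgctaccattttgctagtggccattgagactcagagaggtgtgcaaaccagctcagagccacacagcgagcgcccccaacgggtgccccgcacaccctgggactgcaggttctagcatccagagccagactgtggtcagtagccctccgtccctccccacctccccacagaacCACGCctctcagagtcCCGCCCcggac
The Slc38a5 and Slc16a1 stretches end at the base before the start, and that of Slc2a1 ends 34 bases before it. The Slc38a5 stretch lies inside the annotated gene, between exons of a transcript that starts further upstream. The E-box lies 30 to 25 bases before the start in Slc38a5 and 200 to 195 bases before it in Slc16a1. This palindrome also holds the core ACGTG on both strands, so the 2 motifs are counted there on the same bases. The GC box was found in a window of all 5 carriers, as it was in 35.7% of all 32851 promoter windows of the same length. The E-box was found in 7.15% of all windows, ACGTG in 19.6% and GCGTG in 32.4%. The amino acid response element (TGATGNAA), found in 3.97% of all windows, had no match in the windows of the 5 carriers, and the TCF/LEF motif (CTTTGA), found in 16.0%, matched in Slc3a2 and Slc7a1. A match describes letters in the window and not a bound site.

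All 8 carriers were well measured. Levels were deposited as batch-corrected log2 CPM (counts scaled to a common library total), and the values convert back to between 4810 and 954862 whole adjusted counts per carrier and library. Totals of adjusted counts were 22371766 to 126686149 per library, with the lowest totals in both libraries of pair 1. In the study's scaling plot each of 5 batches holds a control and an APP/PS1 library of the same replicate number, and these are called a pair here. The correction had set the means of the pairs equal, so that the 2 libraries of a pair are close to mirror images around 1 common level. The spread of levels within a group thus follows from the spread of the pair differences, and differences were tested with the pair in the model. App, the mouse gene of the amyloid precursor protein, did not separate the groups in these libraries. It lay between 10.94 and 11.09 log2 CPM in the controls and between 10.87 and 11.03 in APP/PS1 libraries, so the genotype labels could not be checked on it.

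Per exon length, Slc2a1 stood 2.00 log2 units above the next carrier, at 10.95 log2 CPM per kilobase, with a range of 10.79 to 11.11 over the 10 libraries. On this scale it ranked 2 among all 14106 genes. Slc7a5 (8.94, rank 41) and Slc6a6 (8.81, rank 48) followed, and their ranges overlapped, Slc7a5 being the higher in 8 of 10 libraries. Slc3a2 (7.83, rank 117) and Slc16a1 (7.65, rank 139) also overlapped each other, and both lay below Slc6a6 and above Slc38a3 in 10 of 10 libraries. Slc38a3 (6.92, rank 263), Slc38a5 (6.77, rank 299) and Slc7a1 (6.32, rank 427) were the lowest, and each overlapped its neighbour. Thus 3 steps of the order held beyond the spread of libraries: Slc2a1 over Slc7a5, Slc6a6 over Slc3a2, and Slc16a1 over Slc38a3. With the longest transcript as the length, the order of Slc7a5 and Slc6a6, of Slc16a1 and Slc38a3, and of Slc38a5 and Slc7a1 turned, so the third step depends on the length used.

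**Figure D1:**
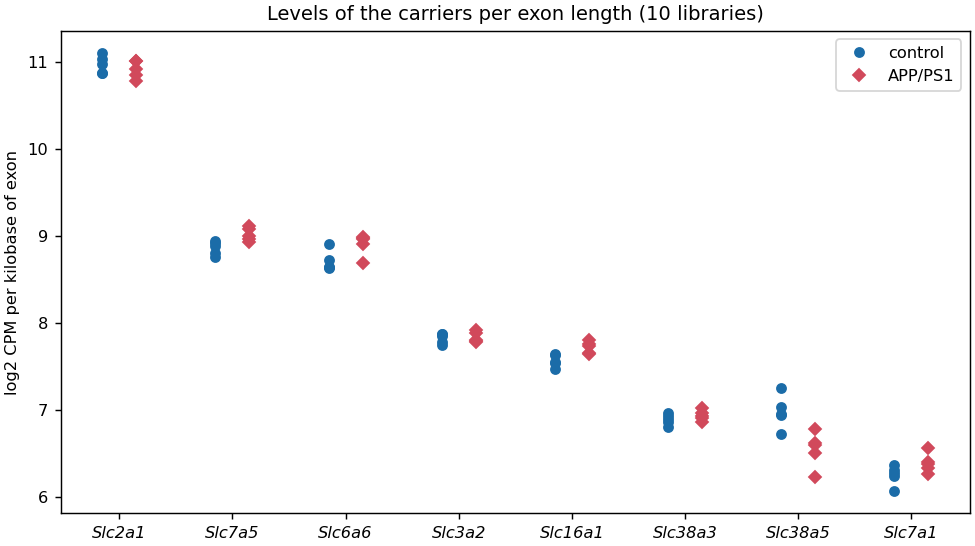
Level of each carrier (y axis, log2 CPM per kilobase of merged exons) in the 5 control libraries (circles) and the 5 APP/PS1 libraries (diamonds), with carriers ordered by their mean. Slc2a1 lies between 10.79 and 11.11, apart from all others, while Slc38a3, Slc38a5 and Slc7a1 overlap with their neighbours at the low end.

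Together the 8 carriers made up 1.58% ± 0.0723 of the effective library size in control libraries and 1.64% ± 0.0754 in those of APP/PS1 mice (SD, n = 5). Slc2a1 took 44.8% of this sum in control and 41.5% in APP/PS1 libraries on average. In pair 1 its share was 45.9% in the control and 40.4% in the APP/PS1 library, and in pair 4 it was 42.8% and 43.5%. The share was lower in the APP/PS1 library of 4 of 5 pairs, with pair 4 the other way.

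No carrier passed the adjusted threshold of 0.05 between APP/PS1 and control BECs. By limma, fitted to all genes with genotype and pair, 0 of 14106 genes did so (0.00%). At an unadjusted p under 0.05, 300 genes (2.13%) were higher and 833 (5.91%) lower in APP/PS1 libraries, and of the 8 carriers 0 were higher and 1, Slc38a5, was lower. Scaled by library size alone, 156 genes were higher and 980 lower, and with limma-voom 160 were higher and 873 lower, both with the median of all genes moved to −0.04. Levels were higher in APP/PS1 in 5 of 5 pairs for 422 genes (2.99%) and lower in 5 of 5 pairs for 705 genes (5.00%), and of the carriers Slc16a1 was higher in 5 of 5 pairs and 0 were lower. For Slc16a1 this depends on the scaling, as given with its values. The groups did not overlap, with APP/PS1 the higher, in 411 genes (2.91%), 1 of them Slc16a1, and, with APP/PS1 the lower, in 700 genes (4.96%), 0 of them carriers. The estimates were above 0 for 6 carriers and below 0 for Slc2a1 and Slc38a5. Their median log2 difference was 0.09 over the 8 (0.03 without pair 3), against −0.004 over all genes. All 8 lay above the median level of all genes, 4.30 log2 CPM, and the 7053 genes at or above it had a median difference of 0.01. In a bulk sample, fewer cells of a type and less RNA per cell cannot be told apart.

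**Figure D2:**
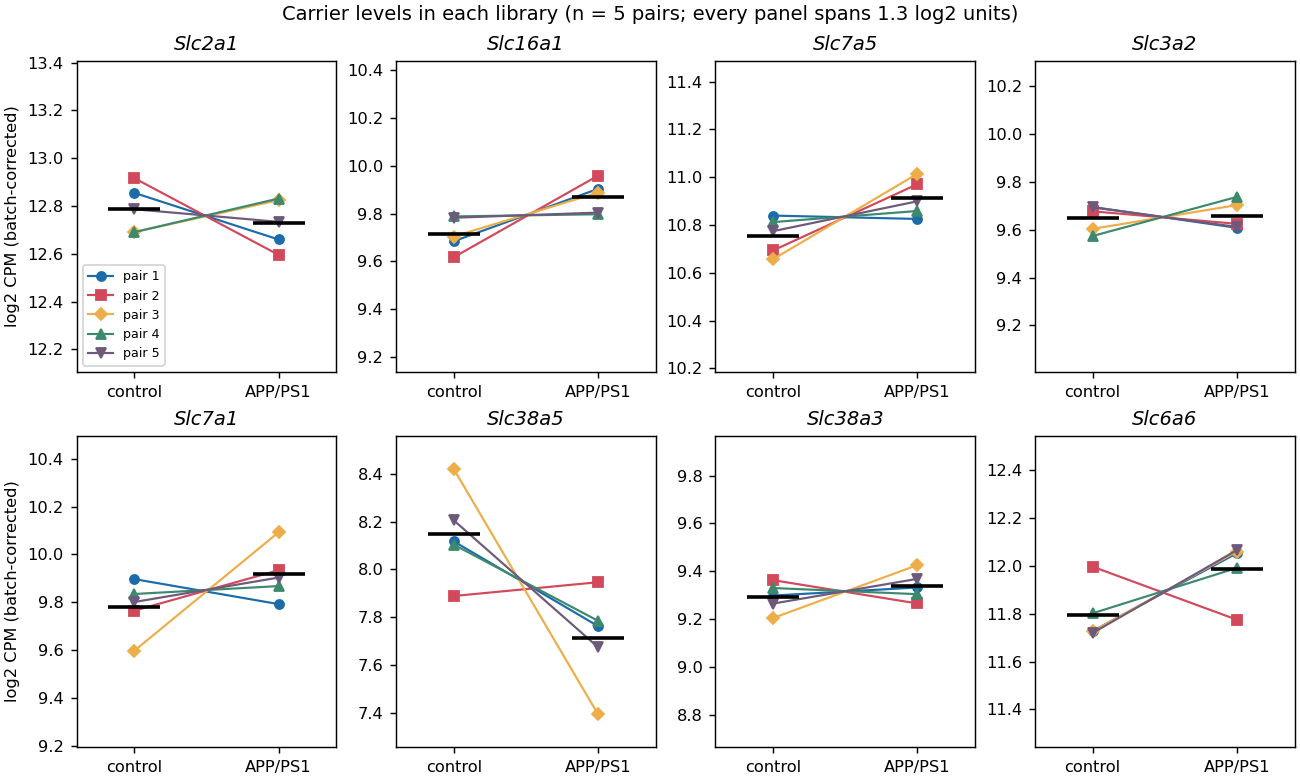
Level of each carrier (y axis, batch-corrected log2 CPM) in control and APP/PS1 libraries, with 1 line per pair and a black bar at each group mean. Every panel spans the same 1.3 log2 units; the lines of Slc16a1 all slope upward in this scaling, and Slc38a5 is lower in APP/PS1 in 4 of 5 pairs, most in pair 3.

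Slc2a1, the glucose carrier, had a difference close to 0, with an interval on both sides of it. In control libraries 1 to 5 it was at 12.85, 12.92, 12.69, 12.69 and 12.79 log2 CPM. In APP/PS1 libraries 1 to 5 it was at 12.66, 12.60, 12.82, 12.83 and 12.73 log2 CPM. The groups overlapped, and the APP/PS1 library was the higher in pairs 3 and 4 and the lower in pairs 1, 2 and 5. APP/PS1 minus control was −0.06 on the log2 scale (SE 0.0846, 95% interval −0.27 to 0.15; limma adjusted p = 0.902). The interval corresponds to between 0.831 and 1.11 times the control level. Without pair 2, in which the control library held the highest value, the estimate was 0.01.

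Slc16a1, the lactate carrier, was, as deposited, higher in each APP/PS1 library than in its control, by little in 2 of the pairs. In control libraries 1 to 5 it was at 9.68, 9.62, 9.70, 9.79 and 9.78 log2 CPM. In APP/PS1 libraries 1 to 5 it was at 9.90, 9.96, 9.89, 9.80 and 9.80 log2 CPM. All 5 APP/PS1 values lay above all 5 control values, although those of pairs 4 and 5 nearly met. The differences of the pairs were 0.22, 0.34, 0.18, 0.01 and 0.02. The log2 difference was 0.15 (SE 0.0649, 95% interval −0.01 to 0.32), a fold of 1.11, with an unadjusted limma p of 0.0558 and an adjusted p of 0.637. Scaled by library size alone, pair 4 turned to −0.09 and pair 5 to −0.04, which left 3 of 5 pairs higher and groups that overlapped, with an unadjusted limma p of 0.226. With median-of-ratios size factors 5 of 5 pairs were higher. Because the pair means are equal, a gene with 1 sign in every pair nearly always has groups that do not overlap, and the 2 counts are not separate evidence.

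MCT1 needs an accessory glycoprotein to reach the membrane, and in endothelium this is basigin, encoded by Bsg. Bsg differed by −0.01 between the groups, from 12.55 ± 0.0380 to 12.54 ± 0.0399 log2 CPM (SD, n = 5). The log2 ratio of Slc16a1 to Bsg was −2.83 ± 0.0926 in control and −2.67 ± 0.0920 in APP/PS1 libraries. It was higher in APP/PS1 in 4 of 5 pairs, by 0.16 on average (exact two-sided sign-flip test, p = 0.125, adjusted over 3 ratios 0.188), in a design that cannot give less than 0.0625. Without pair 2 it was higher by 0.10.

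The light and the heavy chain of the large neutral amino acid exchanger were compared next. Slc7a5, the light chain that forms the path for the amino acids, was at 10.84, 10.69, 10.66, 10.81 and 10.77 log2 CPM in control libraries 1 to 5. It was at 10.83, 10.97, 11.01, 10.86 and 10.90 log2 CPM in APP/PS1 libraries 1 to 5. The APP/PS1 library was the higher in 4 of 5 pairs, and the groups overlapped through pair 1, where the values were nearly equal. The log2 difference was 0.16 (SE 0.0697, 95% interval −0.01 to 0.33; limma adjusted p = 0.666).

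Slc3a2, the heavy chain shared with other light chains, was at 9.70, 9.68, 9.60, 9.57 and 9.69 log2 CPM in control libraries 1 to 5. It was at 9.61, 9.63, 9.70, 9.74 and 9.61 log2 CPM in APP/PS1 libraries 1 to 5. Its values varied the least of the 8 carriers, and the groups overlapped nearly whole. APP/PS1 minus control was 0.01 on the log2 scale (SE 0.0578, 95% interval −0.13 to 0.15; limma adjusted p = 0.980), and its sign turned under other scalings. Per exon length the light chain was 2.16 times as abundant as the heavy chain over the 10 libraries, at 8.94 and 7.83 log2 CPM per kilobase. With the longest transcript as the length the gap was smaller, at 9.02 and 8.16, so this fold depends on the length used. The log2 ratio of Slc7a5 to Slc3a2 was 1.11 ± 0.0873 in control and 1.26 ± 0.0891 in APP/PS1 mice (SD, n = 5), higher in 4 of 5 pairs, and the difference of 0.15 did not pass the exact sign-flip test (p = 0.188, adjusted 0.188).

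Slc7a1, the cationic amino acid carrier, was at 9.90, 9.76, 9.60, 9.83 and 9.80 log2 CPM in control libraries 1 to 5. It was at 9.79, 9.93, 10.09, 9.87 and 9.90 log2 CPM in APP/PS1 libraries 1 to 5. Pair 3 held both the lowest control and the highest APP/PS1 value, and pair 1 went the other way. Over the 5 pairs the estimate was 0.14 (SE 0.0917, 95% interval −0.09 to 0.37; limma adjusted p = 0.809), and without pair 3 it was 0.05.

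Slc38a5, the sodium-coupled carrier of glutamine, serine and related amino acids, had the largest difference of the 8 in size. In control libraries 1 to 5 it was at 8.12, 7.89, 8.42, 8.10 and 8.21 log2 CPM. In APP/PS1 libraries 1 to 5 it was at 7.76, 7.95, 7.39, 7.79 and 7.67 log2 CPM. The groups overlapped through pair 2 alone, in which the APP/PS1 library was the higher by 0.06. In the other pairs it was lower, by 0.35 in pair 1, 1.03 in pair 3, 0.32 in pair 4 and 0.53 in pair 5, all on the log2 scale. The log2 difference was −0.43 (SE 0.151, 95% interval −0.81 to −0.06), or 0.740 times the control level, with an unadjusted limma p of 0.0296 and an adjusted p of 0.577. Without pair 3 it was −0.29, and without pair 2 −0.56. Between pairs, its differences had an SD of 0.394, larger than that of 83.5% of all genes.

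Slc38a3, its paralog, was at 9.30, 9.36, 9.20, 9.33 and 9.26 log2 CPM in control libraries 1 to 5. It was at 9.33, 9.26, 9.43, 9.30 and 9.37 log2 CPM in APP/PS1 libraries 1 to 5. The groups overlapped and the higher library changed from pair to pair. The estimate was 0.05 (SE 0.0597, 95% interval −0.10 to 0.19; limma adjusted p = 0.889), and without pair 3 it was 0.00353. The log2 ratio of Slc38a5 to Slc38a3 was −1.14 ± 0.252 in control and −1.63 ± 0.264 in APP/PS1 mice (SD, n = 5), lower in 4 of 5 pairs, and the difference of −0.48 did not pass the exact sign-flip test (p = 0.125, adjusted 0.188). Without pair 3 this difference was −0.29.

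Slc6a6, the taurine carrier, was at 11.73, 11.997, 11.73, 11.80 and 11.72 log2 CPM in control libraries 1 to 5. It was at 12.05, 11.77, 12.06, 11.99 and 12.07 log2 CPM in APP/PS1 libraries 1 to 5. In 4 pairs the APP/PS1 library was the higher, by 0.33, 0.33, 0.19 and 0.35, and in pair 2 it was lower by 0.22, so the groups overlapped through pair 2 alone. Over the 5 pairs the estimate was 0.19 (SE 0.0977, 95% interval −0.05 to 0.44; limma adjusted p = 0.726). Without pair 2 it was 0.30, still not past the adjusted threshold.

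**Figure D3:**
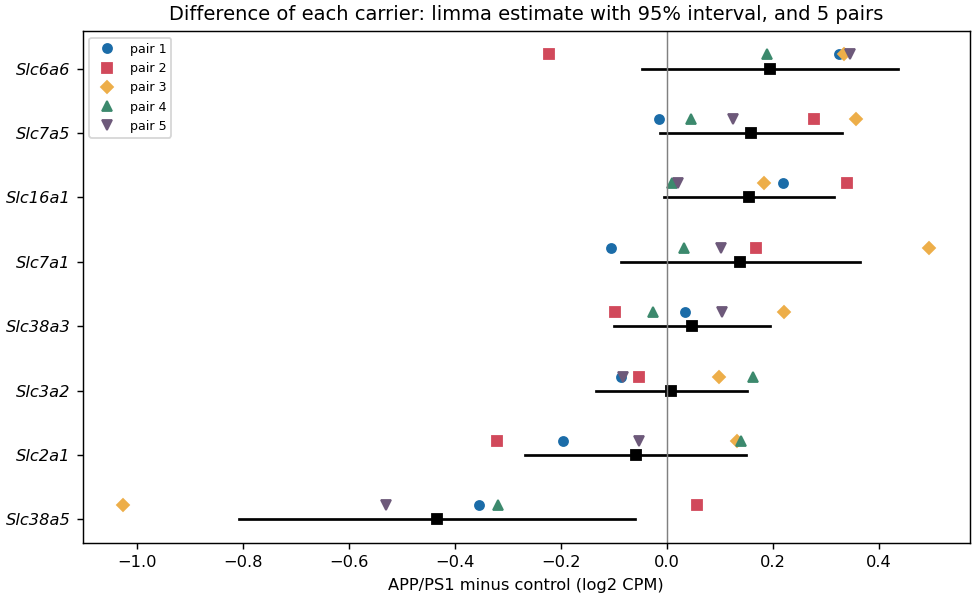
APP/PS1 minus control (x axis, log2 CPM) of each carrier, with the limma estimate as a black square, its 95% interval as a line, and the 5 pair differences as coloured symbols. The interval of Slc38a5 (−0.81 to −0.06) lies below 0 before adjustment, and the other 7 intervals include 0.

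The pair that went against the others was not the same for each carrier. Pair 2 was the exception for Slc38a5 and Slc6a6, and pair 1 for Slc7a5 and Slc7a1. As a measure of likeness, the root mean square distance between the 5 pair differences of 2 genes was used, over the 10872 other genes with a mean of at least 2 log2 CPM. Of the 8 carriers, Slc7a5 and Slc7a1 were the nearest to each other, at 0.0889 log2 units, with 10 genes nearer to Slc7a1 and 12 nearer to Slc7a5. Slc38a5 was the farthest carrier from each of the other 7, and its own nearest carrier, Slc3a2, was at 0.598. The distance is not scaled for the size of the differences, so it does not compare their pattern alone. Among the 8, the SD of the pair differences was the largest for Slc38a5 (0.394) and the smallest for Slc3a2 (0.115).

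Genes outside the 8 lay nearer to each carrier than any other carrier did. The nearest were Psd (0.145) and Nexmif (0.149) for Slc38a5, Notum (0.0394) and Dpp4 (0.0548) for Slc7a1, and Scoc (0.0551) and Eif4a1 (0.0657) for Slc7a5. For Slc6a6 the nearest was Jup (0.0435), and for Slc16a1 they were 5031425E22Rik (0.0568) and Aatf (0.0604). For Slc2a1 they were Cox6a1 (0.0443) and Gm9892 (0.0454), for Slc3a2 Rbbp7 (0.0360) and Gm13422 (0.0363), and for Slc38a3 Ankib1 (0.0257) and Zmym4 (0.0278). With 5 differences and 10872 candidates, near neighbours are found for most patterns, and no test goes with these distances.

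Other members of the carrier families were examined as lists. Of 17 other hexose carriers 12 were in the table, 5 with estimates above and 7 below 0, with a median log2 difference of −0.09 (−0.02 without pair 3). Of these, 0 passed the adjusted threshold, and 4 were lower in 5 of 5 pairs, as were 5.00% of all genes. Slc2a3 (GLUT3, the glucose carrier of neurons) was at 0.84 log2 CPM on average in controls and at 0.10 in APP/PS1, a difference of −0.74 with 5 of 5 pairs lower (limma adjusted p = 0.441). Slc2a13, the proton-coupled myo-inositol carrier, differed by −0.24, also with 5 of 5 pairs lower (limma adjusted p = 0.537). The most abundant of the list, Slc50a1 and the sodium-coupled myo-inositol carrier Slc5a3, differed by −0.03 and 0.17.

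Among 18 other monocarboxylate carriers and accessory proteins, 11 were in the table, 5 with estimates above and 6 below 0, and the median was −0.01. Slc16a12, a creatine carrier, differed by −0.55 (limma adjusted p = 0.556), and Emb, another accessory glycoprotein, by −0.11.

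Among 16 other members of the Slc7, Slc3 and Slc43 families, 10 were in the table, 3 with estimates above and 7 below 0, with a median of −0.08. Slc7a2, a second cationic amino acid carrier, differed by −0.64 with 5 of 5 pairs lower (limma adjusted p = 0.563). Others of the list, named after their values were seen, had estimates above 0: Slc7a8, a paralog of Slc7a5, at 0.32 with 5 of 5 pairs higher (limma adjusted p = 0.580), and Slc7a3, another cationic amino acid carrier, at 0.53 with 3 of 5 pairs higher (limma adjusted p = 0.816). Slc7a11, the cystine/glutamate exchanger that also binds Slc3a2, differed by −0.44 (limma adjusted p = 0.537). The most abundant of the list, Slc43a2 and Slc43a3, differed by −0.11 and −0.07.

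Of 22 other sodium-coupled amino acid carriers 15 were in the table, 5 with estimates above and 10 below 0, and the median was −0.03. Slc38a2 (SNAT2) differed by 0.19 and Slc1a1, a glutamate carrier, by 0.13, each higher in 4 of 5 pairs. The glial glutamate carriers Slc1a2 and Slc1a3 had the smallest p of the list, with differences of −1.48 and −0.86 (limma adjusted p = 0.630 and 0.594). Of 16 genes of osmolyte, creatine and GABA transport and of taurine synthesis 10 were in the table, 5 with estimates above and 5 below 0, with a median of −0.01. Slc36a1, a proton-coupled amino acid carrier, differed by 0.17 with 5 of 5 pairs higher (limma adjusted p = 0.632), and Slc36a4 by 0.04. Slc6a9, a glycine carrier, differed by −0.44 with 5 of 5 pairs lower (limma adjusted p = 0.535).

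**Figure D4:**
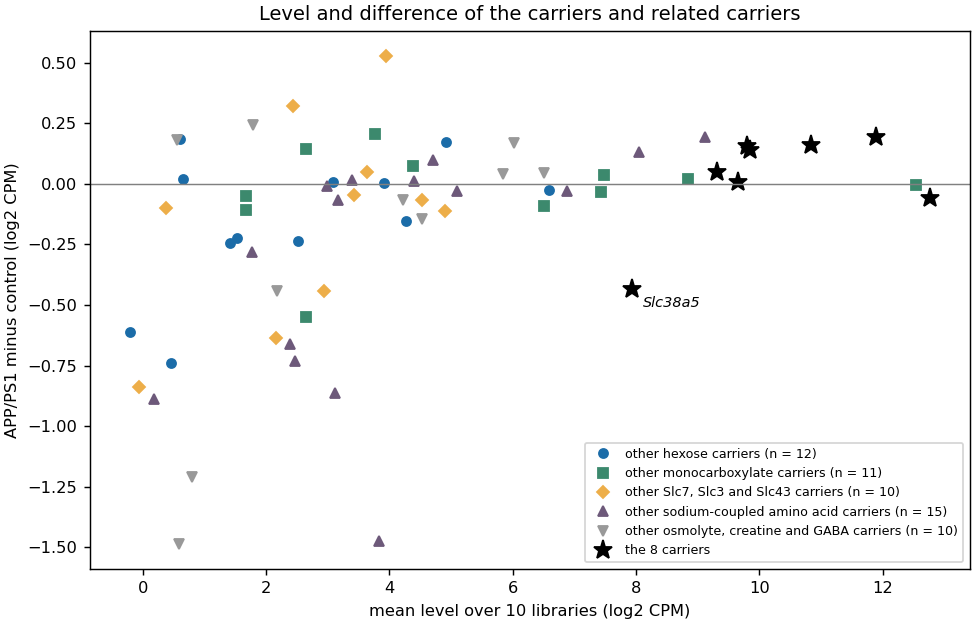
APP/PS1 minus control (y axis, log2 CPM) against the mean level over 10 libraries (x axis, log2 CPM, not per length) for the 8 carriers (stars) and 58 related carriers and partner genes (other symbols, by list). All estimates further than 0.25 below 0 belong to genes under 4.30 log2 CPM, the median of all genes, except Slc38a5 at 7.93 log2 CPM.

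The 8 carriers were at high levels for their families. Of the 58 related genes, 2, Bsg among them, reached the level per exon length of the lowest carrier, Slc7a1. After the values were seen, the 58 were divided at the median level of all genes, 4.30 log2 CPM. Of the 20 at or above it, 11 had estimates above and 9 below 0, with a median of 0.02, and 0 were lower in 5 of 5 pairs. Of the 38 below it, 12 had estimates above and 26 below 0, with a median of −0.13, and 7 were lower in 5 of 5 pairs. Over all genes, 2995 of 7053 had estimates below 0 at or above this level, and 204 of them (2.89% of 7053) were lower in 5 of 5 pairs. Below it, 4313 of 7053 had estimates below 0 and 501 (7.10%) were lower in 5 of 5 pairs.

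Genes that respond to a shortage of amino acids, and genes that control the traffic of carriers, were also listed. Of 26 genes of the amino acid response, among them Atf4 targets, 23 were in the table, 8 with estimates above and 15 below 0, with a median of −0.05. Atf3 and Ddit4, the most abundant, differed by 0.08 and −0.19, and Psat1, an enzyme of serine synthesis, and Vldlr by −0.49 and −0.78 (limma adjusted p = 0.600 and 0.618). All 12 genes of carrier traffic and turnover were in the table, 5 with estimates above and 7 below 0, with a median of −0.02. Txnip, which promotes the uptake of GLUT1 from the membrane, differed by −0.11, and Nedd4, a ubiquitin ligase, by 0.04. The retromer subunits and partners Snx27 and Vps35 differed by 0.07 and −0.06. No gene of these 7 lists passed the adjusted threshold by limma.

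Markers of the labelled cell type were abundant in every library, and those of most other cell types had estimates below 0. All 16 endothelial markers were in the table, with a median difference of 0.03 (12 estimates above and 4 below 0) and a summed level of 14.68 to 14.76 log2 CPM in the controls and 14.75 to 14.82 in APP/PS1 libraries. All 10 pericyte markers had estimates below 0, with a median of −0.77, and their summed level ranged from 9.002 to 9.81 log2 CPM in controls and from 8.01 to 9.06 in APP/PS1 libraries. Of 10 oligodendrocyte markers 9 were in the table and all 9 had estimates below 0, with a median of −1.12 and a summed level of 5.39 to 8.12 in control and 5.08 to 7.15 in APP/PS1 libraries. For the other lists, the median log2 difference and the range of the summed log2 CPM in control against APP/PS1 libraries are given with the number of markers in the table. They were 5 of 6 smooth muscle markers (−0.77, 6.88 to 7.43 against 6.09 to 6.70), 6 of 9 neuron markers (−0.74, 6.83 to 7.09 against 6.71 to 6.9997), 9 of 9 astrocyte markers (−0.46, 7.85 to 8.17 against 7.95 to 8.29) and 4 of 6 fibroblast markers (−0.58, 3.92 to 4.36 against 3.35 to 3.85). They were 3 of 6 choroid plexus markers (−1.03, 5.57 to 6.31 against 5.13 to 5.75), 4 of 5 erythroid markers (−1.16, 4.88 to 7.91 against 3.84 to 7.25) and 9 of 10 microglia and leukocyte markers (−0.03, 5.86 to 6.14 against 5.76 to 6.04). The astrocyte median was below 0 while the summed level, to which Gja1 and Fgfr3 gave most, was higher in 4 of 5 pairs. Mag, an oligodendrocyte marker, was the only marker of these lists with 0 adjusted counts in a library, and no marker passed the adjusted threshold by limma. The summed levels of smooth muscle and of fibroblast markers were lower in 5 of 5 pairs. Those of pericyte, oligodendrocyte and choroid plexus markers were lower in 4 of 5 pairs, as was Slc38a5, but the pairs were not all the same. Slc38a5 was higher in pair 2 alone and was lower by the most, 1.03, in pair 3. Rgs5, the most abundant pericyte marker, was higher in pair 5 alone, by 0.01, and lower by 0.26 in pair 3. This was the smallest pair 3 difference of the 10 pericyte markers. The others were lower in pair 3 by 0.28 (Atp13a5) to 0.84 (Kcnj8), and 3 of the 10 were lower in 5 of 5 pairs. Among oligodendrocyte markers, Mbp was higher in pair 2 alone, by 5.79, and Cnp was lower in 5 of 5 pairs. The part of these cells in the values of Slc38a5, Slc2a3, Slc1a2, Slc1a3 and the other carriers was not tested.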

How the data were processed

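RNA of BECs from 5 control and 5 APP/PS1 libraries had been sequenced on the Illumina platform. In the methods, the authors describe alignment to mm10 by STAR, gene counts by HTSeq-count, filterByExpr and log CPM of edgeR, and ComBat of sva for batches. Tool versions are not given in the sources used here. The authors deposited log2 CPM of 14106 genes, and 10 files of single libraries equalled the table. All values converted back to whole adjusted counts (prior count 3, tolerance 0.01), which are no longer reads, so counting error was not estimated. GENCODE M21 symbols were found for 14106 genes.

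Limma 3.58.1 in R 4.3.3 (lmFit, eBayes) was fitted to the deposited values with genotype and pair as terms (residual degrees of freedom 4), with Benjamini-Hochberg adjustment across all genes and a threshold of 0.05. Pairs come from the study's scaling plot, which shows 5 batches of a control with an APP/PS1 library, while the sample labels give 4 batches. The SD over the 5 pairs was 0.00353 for the pair means and 0.0863 for the halved pair differences (medians over genes). The deposited values thus carry no pairing of their own. Ratios were tested by exact sign-flip tests in SciPy 1.17.1. The fit was tested on simulated data.

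Members and lists were chosen with earlier results of these data known. Named genes were the 8 carriers, in each related list the 2 highest in level and the 2 with the smallest p, and the 2 genes nearest to each carrier. Marker genes were given as lists. Single markers and App were named after the values were seen. Values of some genes under this rule are not reported here.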

Additional observations from a re-analysis of the deposited data

Results flagged for a closer look

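In APP/PS1 libraries the Slc6a6 value of replicate 2, 11.77 log2 CPM, lay apart from the other 4, which were between 11.99 and 12.07. Its gap to the nearest of them was 0.744 of the range of the group, above Dixon's 95% critical value for 5 samples. A total of 22 groups were examined in this way, of which chance would give about 1.1, and this was the one found. The control library of the same pair held the highest control value, 11.997 log2 CPM, as the mirrored pair values require.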

How the results depend on the processing

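No carrier passed the adjusted threshold under any of the 13 alternatives run. With no replicate block, 648 genes passed it instead of 0, with 1212 genes higher and 1837 lower at an unadjusted p under 0.05, and the smallest adjusted p of a carrier was 0.0673, for Slc38a5. That fit does not count the degrees of freedom used to set the pair means equal. With the 4 batches of the labels 1 gene passed and 517 were higher. Scaling by library size alone gave 156 higher genes and limma-voom 160 (300 in the deposited scaling), and both moved the median of all genes to −0.04. Under these 2 scalings Slc3a2 turned to −0.0290 and −0.0318, and by library size alone Slc16a1, Slc7a5 and Slc7a1 were higher in 3 of 5 pairs. Leaving out 1 pair at a time gave 0 to 5 genes past the threshold (5 without pair 2 and 1 without pair 5), 201 to 826 higher and 517 to 1182 lower. Slc2a1 then ranged from −0.11 to 0.00661, the latter without replicate 2, and Slc3a2 ranged from −0.0305 to 0.0322 and was below 0 without replicates 3 and 4 (−0.0144 and −0.0305). The causes were not tested. The adjusted p of Slc38a5 ranged from 0.0673 to 0.934 over the alternatives. With the longest transcript as length, levels per kilobase moved to 11.05 for Slc2a1, 8.16 for Slc3a2, 7.004 for Slc7a1, 7.66 for Slc38a3 and 9.26 for Slc6a6. Without replicate 3 the medians of the 7 related lists ranged from −0.06 to −0.02. What depth limits is not known here, since counting error was not estimated.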
